A study of Mus musculus with 6 samples.

Results

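Desmosomes are the spot-like junctions that hold epithelial and heart muscle cells together. In each of them desmosomal cadherins, the desmogleins and desmocollins, span the membrane and bind cadherins of the neighbouring cell, armadillo proteins (plakoglobin and the plakophilins) bind the cadherin tails in a plaque under the membrane, and the plakin desmoplakin ties this plaque to intermediate filaments. T lymphocytes are not known for building desmosomes, although single plaque genes can be transcribed in cells that have none. The desmosome genes described here are *Dsp*, *Evpl*, *Jup*, *Pkp1*, *Pkp2*, *Pkp3*, *Pkp4*, *Dsg2*, *Dsc2* and *Perp*, which are 10 of the 18193 genes measured and are read by 23 of the 45037 probe sets tested. They were chosen by name as desmosome genes at a time when their difference between the groups on these same arrays was already known. That difference is therefore given below as a description with no test of its own, and nothing is supported with it. Every probe set that the annotation assigns to one of these genes and to no other is included, whatever its level.

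The study asked what changes when activated CD8 T cells are kept from losing the transcription factor KLF2. Splenocytes of C57BL/6 mice aged 8 to 12 weeks, all with the transgenic P14 T cell receptor for an LCMV peptide, gp33-41, were given that peptide for 48 hours, received a retrovirus 18 hours into this stimulus and then spent 48 hours in IL-2. In the evGFP group (3 arrays) the virus carried GFP alone as an empty vector, and in the GFP-KLF2 group (3 arrays) it carried KLF2 fused to GFP, so that both groups share the receptor transgene, peptide, virus backbone, IL-2 and GFP. Cells positive for GFP were sorted, so that cells without GFP are left out, and the RNA of each of 3 biological replicates per group was hybridised to an Affymetrix mouse expression array. What makes a replicate separate (mouse, culture or day) is not given in the sources used here, so the spread between arrays may in part be technical. The probe set of *Klf2* reads a stretch that the construct lacks, by the study's account, and so does not check the group labels. Of 8 measured markers of CD8 T cells all had mean levels of at least 10.13 on the log2 scale (*Cd3e*), and the arrays' median probe set lay at 5.64 to 5.67.

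The desmosome genes fell into those that differed between the groups and those that did not reach the threshold. Levels are log2 intensities, so that a difference of 1 is a 2-fold change, and a gene is said to be called when its adjusted p by limma was under 0.046. By the brightest probe set of each gene 5 of the 10 genes were called higher in GFP-KLF2 cells, namely *Dsp*, *Evpl*, *Jup*, *Pkp3* and *Perp*, where 6.22% of all genes were. All 5 of them were at least 2-fold higher. Of all genes, called or not, 2.23% were both called higher and at least 2-fold higher. None was called lower, where 8.35% of all genes were. At an unadjusted p under 0.05 by limma 0 were lower. The share of all genes at this unadjusted cut was not counted. Nothing is therefore read from the unadjusted counts, here or in the lists below. Counted by probe set, 7 of 23 were called higher, where 4.76% of all probe sets were. For these 5 genes the lowest GFP-KLF2 array lay above the highest evGFP array, which 14.3% of all genes also showed. The median difference of the 10 genes was 0.68 and that of all genes -0.01. Since the genes were listed with this comparison known, nothing is read from these shares.

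**Figure D1:**
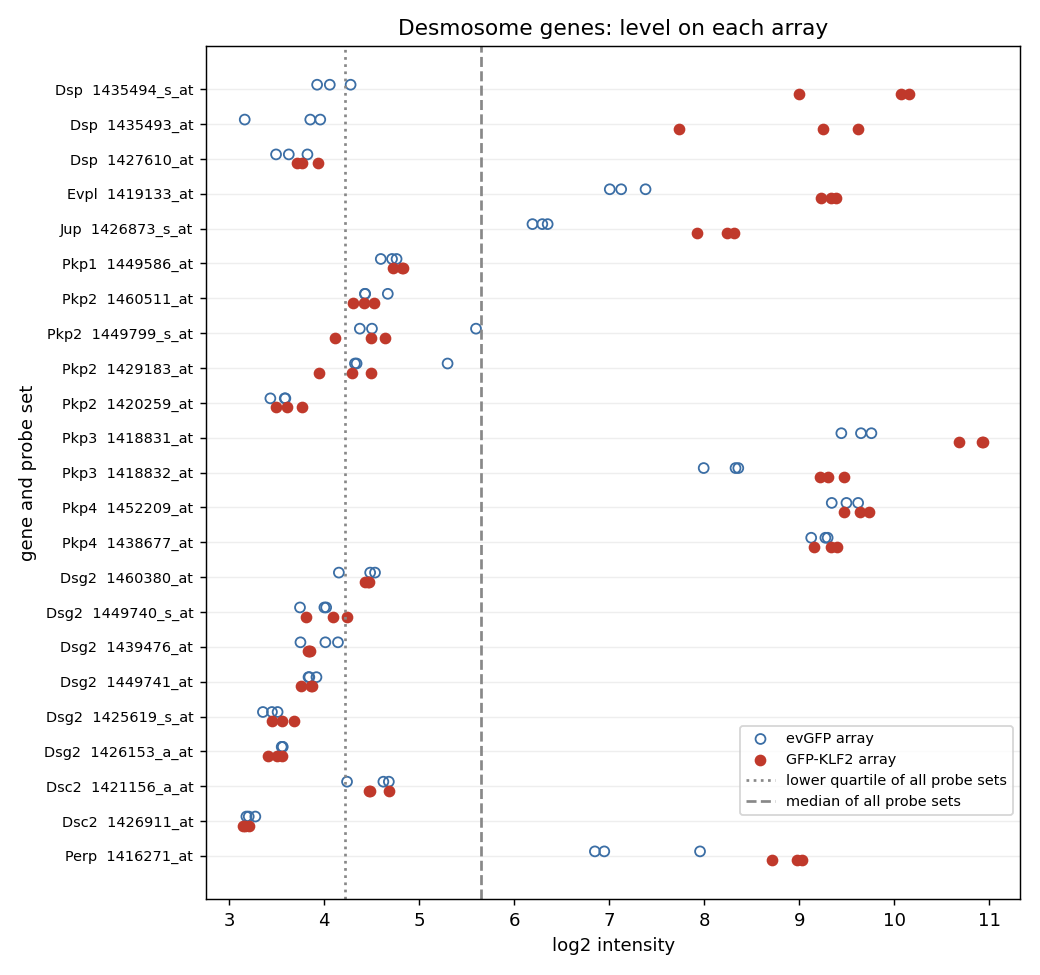
Log2 intensity (x axis) of every probe set of the desmosome genes (rows) on each evGFP array (open circles) and each GFP-KLF2 array (filled circles), with the lower quartile (dotted) and the median (dashed) of all probe sets. The 2 groups lie apart in 7 probe sets. They belong to 5 of the 10 genes, where 14.3% of all genes by brightest probe set had every GFP-KLF2 array above every evGFP array. Of the 23 probe sets 14 stay under the array median on all 6 arrays. The share over all probe sets was counted for neither.

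Start-site sequences are shown for *Dsp* and *Jup*, which were higher in GFP-KLF2 cells, and for *Pkp4*, which was not called, because factors of the KLF family are known to bind CACCC and related GC-rich boxes. Each holds 250 bases before and 50 bases after an annotated transcript start and is taken from RefSeq on build GRCm38.p6, read along the gene's own strand. Capitals mark matches on either strand to CACCC or to the wider box CCNCNCCC, in which N is any base and which can overlap the first. *Dsp* lies at chr13:38151294-38198577, *Jup* at chr11:100368856-100397839 and *Pkp4* at chr2:59160850-59355205. A start region was found in the table used for these 3 genes, and for *Pkp4* the first of its 2 is shown.
Dsp promoter, chr13:38151044-38151343, plus strand: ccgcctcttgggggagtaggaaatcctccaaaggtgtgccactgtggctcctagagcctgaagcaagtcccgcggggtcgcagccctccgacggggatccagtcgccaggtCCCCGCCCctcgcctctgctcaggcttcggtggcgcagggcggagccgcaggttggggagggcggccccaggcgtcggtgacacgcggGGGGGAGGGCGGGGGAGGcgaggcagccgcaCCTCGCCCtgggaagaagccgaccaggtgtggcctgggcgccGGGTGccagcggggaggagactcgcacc
Jup promoter, chr11:100397741-100398040, minus strand: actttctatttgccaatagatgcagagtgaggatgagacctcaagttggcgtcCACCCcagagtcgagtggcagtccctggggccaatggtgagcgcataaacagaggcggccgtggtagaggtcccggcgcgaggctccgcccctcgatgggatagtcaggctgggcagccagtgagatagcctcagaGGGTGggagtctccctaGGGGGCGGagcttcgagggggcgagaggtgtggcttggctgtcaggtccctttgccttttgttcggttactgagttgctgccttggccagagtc
Pkp4 promoter, chr2:59160600-59160899, plus strand: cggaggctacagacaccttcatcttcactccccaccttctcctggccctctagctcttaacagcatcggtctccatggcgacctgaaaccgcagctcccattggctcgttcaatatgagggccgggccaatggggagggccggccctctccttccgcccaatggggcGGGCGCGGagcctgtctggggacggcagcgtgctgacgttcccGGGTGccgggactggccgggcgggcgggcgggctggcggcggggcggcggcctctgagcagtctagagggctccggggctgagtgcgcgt

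The *Dsp* window held 1 match to CACCC and 5 to CCNCNCCC, some of which overlap in one G-rich run on the other strand. The *Jup* window held 2 and 1, and the *Pkp4* window 1 and 1. Of 32544 distinct windows of the same length in the table, 57.7% held CACCC and 49.7% held CCNCNCCC at least once, and 8.23% held the wider box 5 times or more. The share of G and C was 73% for *Dsp*, 60.7% for *Jup* and 69.3% for *Pkp4*. Both motifs were present in these 3 windows. A second annotated start of *Pkp4*, whose window lies at chr2:59161619-59161918 and is not printed, held 2 matches to CACCC and 0 to CCNCNCCC. Binding was not measured.

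Among the plakins, which link junctions to filaments, *Dsp* (Entrez gene 109620) showed the largest rise of the 18193 genes when each gene was read by its brightest probe set. With the mean of all its probe sets, which takes in one near the lower end of the arrays, its difference was 3.67, or 12.7-fold, and it ranked 12. *Dsp* encodes desmoplakin. On its brightest probe set, 1435494_s_at, the evGFP arrays gave 4.06, 3.93 and 4.28 and the GFP-KLF2 arrays 10.15, 10.07 and 8.99. The control values sat about the arrays' lower quartile, 4.18 to 4.25, while all 3 GFP-KLF2 values were far above the median. The difference was 5.65 log2 units (standard error 0.29, 95% confidence interval 4.97 to 6.33), or 50.2-fold, and since the control signal lies at the lower end of the arrays the fold is uncertain. A second probe set, 1435493_at, gave 3.86, 3.96 and 3.17 against 9.25, 9.61 and 7.73, a difference of 5.21 (standard error 0.46).

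These 2 probe sets also varied together among the GFP-KLF2 arrays. Replicate 3 lay lowest on both, 0.75 and 1.13 log2 units under the mean of its group. For the other genes called higher the same array was close to or above its group mean, with deviations of -0.08 for *Evpl*, where it was also the lowest of the 3, 0.08 for *Jup*, 0.12 for *Perp* and 0.09 for the brighter *Pkp3* probe set. Without GFP-KLF2 replicate 3 the *Dsp* difference on the brightest probe set was 6.02, the highest value with any single array left out.

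The remaining *Dsp* probe set, 1427610_at, did not show the difference. It gave 3.63, 3.83 and 3.50 in evGFP and 3.72, 3.93 and 3.77 in GFP-KLF2 cells, and all 6 values were under the lower quartile of their arrays. Its difference was 0.16 (95% confidence interval -0.09 to 0.41), and the groups overlapped. The annotation ties it to another sequence record than the other *Dsp* probe sets. Which part of the transcript each reads is not given in the sources used here.

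*Evpl* (Entrez gene 14027, GRCm38.p6 chr11:116220559-116238165) encodes envoplakin, a plakin of the cornified envelope that also locates to desmosomes. Its single probe set gave 7.38, 7.01 and 7.13 in evGFP cells and 9.33, 9.38 and 9.23 in GFP-KLF2 cells. The GFP-KLF2 arrays were tightly grouped and each lay at least 1.85 above the highest control. The difference was 2.14 (standard error 0.11, 95% confidence interval 1.89 to 2.40), which is 4.42-fold. The probe set was above the array median in control cells as well.

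Among the armadillo proteins of the plaque *Jup* and *Pkp3* differed between the groups, while *Pkp1*, *Pkp2* and *Pkp4* did not reach the threshold. *Jup* (Entrez gene 16480) encodes plakoglobin, also known as gamma-catenin, which serves in desmosomes and adherens junctions alike. Its probe set read 6.35, 6.30 and 6.19 in evGFP cells and 7.92, 8.31 and 8.24 in GFP-KLF2 cells. No array of one group entered the range of the other. The difference of 1.87 (standard error 0.12, 95% confidence interval 1.61 to 2.14) is 3.67-fold. The name of this probe set ends in _s_at, the maker's mark for probes that can match more than one transcript, and no second gene is listed for it. The brightest probe sets of *Dsp* and *Pkp2*, and some of *Dsg2*, carry the same mark, also with no second gene listed.

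*Pkp3* (Entrez gene 56460, GRCm38.p6 chr7:141078229-141090511), a plakophilin found in the desmosomes of most epithelia, was well above the array median in control cells. On 1418831_at the evGFP arrays gave 9.44, 9.76 and 9.65 and the GFP-KLF2 arrays 10.68, 10.92 and 10.94. On 1418832_at they gave 7.99, 8.36 and 8.33 against 9.21, 9.30 and 9.48. Both probe sets of this gene thus moved by a like amount, 1.23 and 1.10, with standard errors of 0.11 and 0.12. The first corresponds to 2.34-fold, the smallest of the 5 called genes by brightest probe set.

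*Pkp4* (Entrez gene 227937), a relative of p120 catenin found at adherens junctions and desmosomes, was also bright in both groups but close to level between them. Its brighter probe set gave 9.62, 9.50 and 9.34 in evGFP cells and 9.73, 9.64 and 9.47 in GFP-KLF2 cells. The groups overlapped although each GFP-KLF2 array was above the evGFP array of the same number, by 0.11, 0.14 and 0.13. The difference was 0.13 (95% confidence interval -0.12 to 0.37), and on the second probe set 0.06 (-0.16 to 0.28), so that a 2-fold difference in either direction lies outside both intervals.

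*Pkp1*, a plakophilin of stratified epithelia, and *Pkp2*, the main plakophilin of heart muscle and simple epithelia, stayed under the array median on all 6 arrays. *Pkp1* gave 4.72, 4.76 and 4.60 against 4.82, 4.84 and 4.73, a difference of 0.10 (95% confidence interval -0.09 to 0.29). The 4 probe sets of *Pkp2* differed by -0.41 to 0.09 and none was called. On its brightest, 1449799_s_at, 1 control array stood apart, with 4.50, 4.38 and 5.60 in evGFP and 4.64, 4.11 and 4.49 in GFP-KLF2 cells. On 1429183_at the same array, evGFP replicate 3, was again the highest at 5.30, against 4.33 and 4.34 in the other controls. Without it the *Pkp2* differences on these probe sets were -0.03 and -0.09, where all 6 arrays gave -0.41 on each. The other *Pkp2* probe sets did not show this array apart, at 4.43 and 3.44.

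Neither of the desmosomal cadherins among the 10 genes was seen to differ. *Dsg2* encodes desmoglein 2 and *Dsc2* desmocollin 2, the pair present in all tissues that build desmosomes. All 6 probe sets of *Dsg2* and both of *Dsc2* stayed under the array median on every array. The differences of the *Dsg2* probe sets ran from -0.13 to 0.13, and on the brightest the values were 4.54, 4.49 and 4.16 in evGFP and 4.48, 4.43 and 4.47 in GFP-KLF2 cells. *Dsc2* gave 4.62, 4.68 and 4.24 against 4.68, 4.49 and 4.48, a difference of 0.03 (95% confidence interval -0.27 to 0.34). Signal this close to the lower end limits what an array can show, so that these values do not show that the cadherin transcripts were absent or alike.

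*Perp* (Entrez gene 64058, GRCm38.p6 chr10:18845071-18857073) encodes a small membrane protein with several membrane spans that is needed for desmosome stability in skin. Its probe set gave 7.96, 6.95 and 6.85 in evGFP cells and 8.97, 8.72 and 9.03 in GFP-KLF2 cells. Among the controls replicate 1 was higher by about 1 log2 unit than the others, and it still lay 0.76 below the lowest GFP-KLF2 array. The difference was 1.66 (standard error 0.28, 95% confidence interval 1.01 to 2.30), or 3.15-fold. Of the genes called higher *Perp* was the one that lost its call when a single array was left out, which happened without evGFP replicate 2, with a difference of 1.51.

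**Figure D2:**
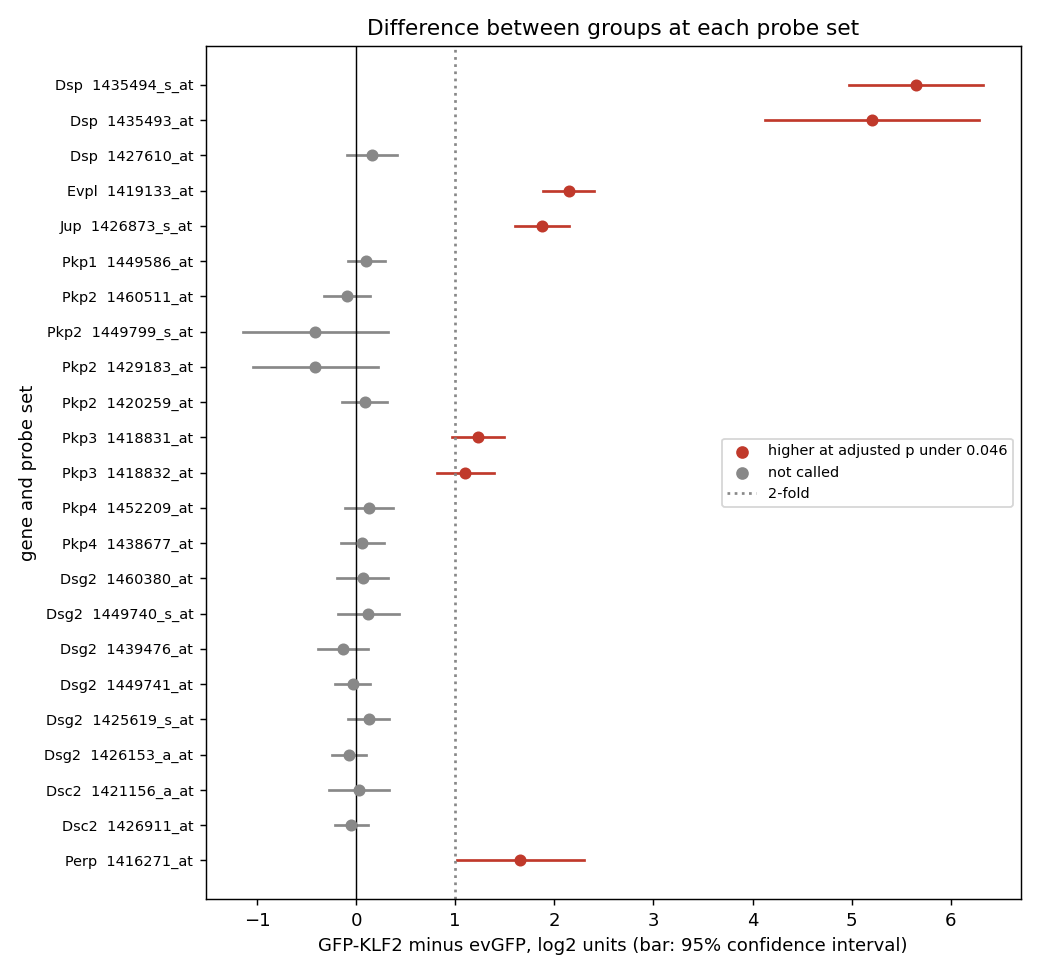
Difference between the group means (GFP-KLF2 minus evGFP, log2 units, points) with its 95% confidence interval (bars) for each probe set of the desmosome genes. Probe sets called higher are red and those not called grey, and the dotted line marks a 2-fold rise. The called probe sets lie between 1.10 and 5.65, while those not called lie between -0.41 and 0.16.

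Arrays of the same replicate number deviated alike from their group means, so that differences within each pair are also given. All 7 called probe sets were higher in the GFP-KLF2 array of all 3 pairs, the smallest of these differences being 0.94, for the dimmer *Pkp3* probe set in the second pair. Since the groups did not overlap on these probe sets, any pairing of arrays would give this direction, and nothing is read from it. For *Dsp* the third pair differed least, by 4.72 against 6.09 and 6.14 on the brightest probe set. For *Perp* the third pair differed most, with 1.02, 1.77 and 2.18 in pairs 1, 2 and 3. *Evpl* (1.95, 2.38 and 2.11) and *Jup* (1.57, 2.01 and 2.05) were lowest in the first pair. The sizes of the differences thus did not rise and fall together over the pairs. With the replicate number as a block, 5 of the 10 genes were again called higher and 0 lower, where 8.58% of all genes were called higher and 12.1% lower in that fit.

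**Figure D3:**
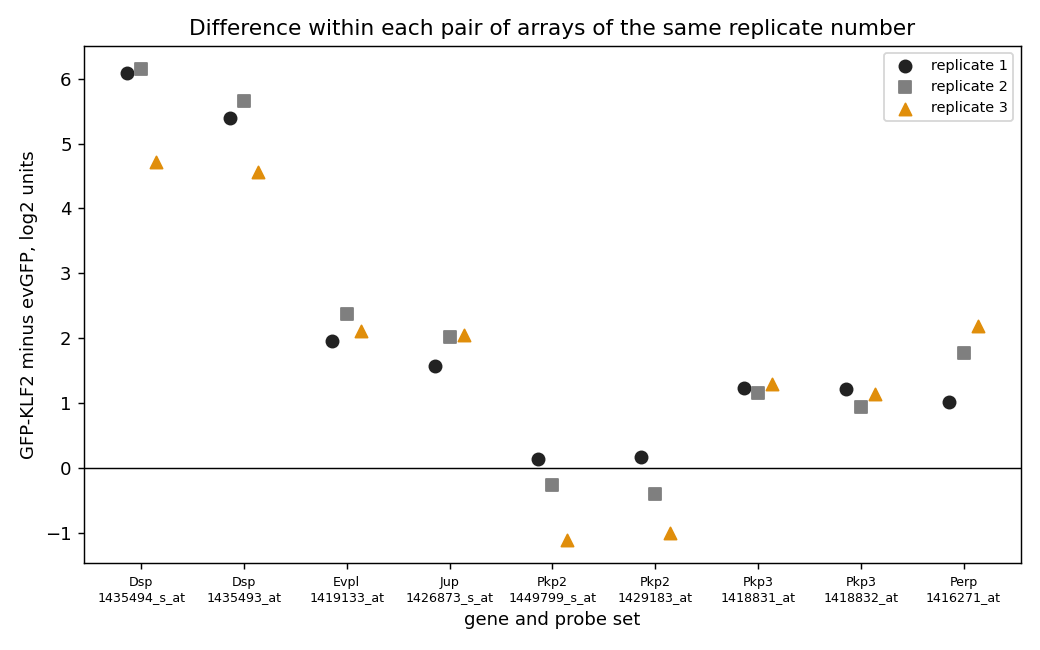
Difference between the GFP-KLF2 and the evGFP array of the same replicate number (y axis, log2 units) for the probe sets called higher and for the 2 *Pkp2* probe sets on which evGFP replicate 3 stood apart. Called probe sets are above 0 in all 3 pairs, as any pairing would give where the groups do not overlap. Replicate 3 (triangles) gives the smallest of the 3 differences for *Dsp* and the largest for *Perp*.

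The genes whose pattern over the 6 arrays was nearest to that of *Dsp*, after each gene's own evGFP mean was subtracted, were *Nupr1*, *Serpinb9b*, *Upp1*, *Ifit1bl1* and *Crabp2*. The measure is the mean absolute distance over the 6 arrays, which was 0.36 log2 units for *Nupr1* and 0.70 for *Crabp2*. *Nupr1*, a stress-induced chromatin protein, read 11.13, 11.50 and 10.35 in GFP-KLF2 cells, and *Upp1*, a uridine phosphorylase, 11.57, 11.49 and 10.07. In these genes, as in *Dsp*, GFP-KLF2 replicate 3 was the lowest of its group. *Serpinb9b*, a serine protease inhibitor, did not share this, with 11.16, 10.76 and 10.90. The measure uses the difference between the groups, so it names genes with a like rise and no more.

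The desmosome genes outside the 10 gave no call. Of 7 measured among 10 listed, 0 were called higher or lower by limma, with 1 higher and 0 lower at an unadjusted p under 0.05, and their median difference was 0.02. Over all genes 6.22% were called higher and 8.35% lower. Against these shares lists this small are expected to give few calls or none. Nothing is read from such counts, here or for the lists and markers below. All 7, among them the stratified cadherins *Dsg1a*, *Dsg1b*, *Dsc1* and *Dsc3*, had group means under the array median. *Ppl*, which encodes periplakin, the partner of envoplakin, was at 5.13 ± 0.12 in evGFP and 5.33 ± 0.04 in GFP-KLF2 cells (log2 intensity, SD, n = 3), a difference of 0.20 (adjusted p = 0.2). *Dsc1* differed by 0.21 (adjusted p = 0.264).

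Of the filaments and the other plakins 2 of 20 genes were called higher and 0 lower, with 5 and 1 at an unadjusted p under 0.05 by limma and a median difference of 0.05. Both called genes are plakins. *Plec*, which encodes plectin, the linker of vimentin and keratin filaments to membrane sites, rose by 0.99 (standard error 0.10, adjusted p = 0.00207), and it was called with every single array left out. *Macf1*, a plakin that crosslinks actin and microtubules, rose by 0.54 (adjusted p = 0.0174) but was not called without evGFP replicate 1 or 2 (adjusted p = 0.0519 and 0.0681). Another plakin, *Dst*, had -0.36 (adjusted p = 0.114, 0.0442 with the replicate block). *Vim*, the filament protein of lymphocytes, was at 14.47 ± 0.03 and 14.52 ± 0.05 (SD, n = 3), and was not called. Of the keratins, the filaments of epithelia, *Krt6b* had the largest difference, 1.21 (adjusted p = 0.0478, 0.0251 with the replicate block, which gave 3 calls higher and 1 lower in this list). It read 4.18, 3.86 and 3.95 in evGFP and 5.30, 5.86 and 4.46 in GFP-KLF2 cells, and was called without GFP-KLF2 replicate 3 (adjusted p = 0.00589).

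Adherens junctions join cells through classical cadherins and share plakoglobin with desmosomes. Of 16 genes 2 were called higher and 0 lower, with 5 and 0 at an unadjusted p under 0.05 by limma and a median difference of 0.08. With the replicate block 4 were called higher. *Vcl*, which encodes the actin-binding plaque protein vinculin, rose from 7.60 ± 0.13 to 9.26 ± 0.17 (SD, n = 3), a difference of 1.65 (standard error 0.11, adjusted p = 0.000546). A dimmer *Vcl* probe set had 0.08 (adjusted p = 0.722). *Ctnna1*, which encodes alpha-catenin, rose by 0.67 (adjusted p = 0.0287), yet of the fits with 1 array left out it was called only without evGFP replicate 3, and the adjusted p reached 0.102 in the others. Its dimmer probe sets were not called, with 0.62 (adjusted p = 0.083), 0.26 (0.572) and 0.01 (0.955). *Cdh1*, which encodes E-cadherin, varied widely, with 4.80, 7.13 and 7.66 in evGFP and 7.45, 8.90 and 8.83 in GFP-KLF2 cells. Its groups overlapped and the difference of 1.86 was not called (adjusted p = 0.164), but it was with the replicate block (adjusted p = 0.00626), as was *Afdn* (0.54, adjusted p = 0.0505, 0.0121 with the replicate block). The counts were 1 called without evGFP replicate 1 or 2 or GFP-KLF2 replicate 1, 2 or 3, and 3 without evGFP replicate 3.

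Tight junction genes gave 0 calls among 11 by limma, with 1 higher and 0 lower at an unadjusted p under 0.05. With the replicate block 1 was called higher, *Tjp3* (0.62, adjusted p = 0.0832, 0.013 with the replicate block). *Tjp3* was also called without evGFP replicate 3 (adjusted p = 0.0262). Of 6 hemidesmosome genes *Lamb3*, which encodes a laminin chain, was the only one called, with 0.65 (adjusted p = 0.0142). It was not called without evGFP replicate 1 or 2 or GFP-KLF2 replicate 1 or 2 (adjusted p = 0.0509 to 0.0603). *Cd151* had 0.41 (adjusted p = 0.0868, 0.0195 with the replicate block), which makes 2 calls with the block. The integrin chain *Itgb4*, the core of hemidesmosomes, had -0.02 (adjusted p = 0.932).

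*Perp* is also known as a target of the transcription factor p53, which acts in the response to DNA damage. In a list of 13 measured genes of the p53 family and its targets 2 were called higher and 1 lower, with 2 and 4 at an unadjusted p under 0.05 by limma and a median difference of 0.02. *Pmaip1*, a pro-death BCL-2 family gene, rose by 1.63 (adjusted p = 0.0224), the CDK inhibitor *Cdkn1a* rose by 0.65 (adjusted p = 0.0355), and the cyclin *Ccng1* fell by 0.55 (adjusted p = 0.0413). The rise of *Cdkn1a* was 1.57-fold, and the study, which required at least 2-fold, reported no regulation of this gene on its arrays. *Pmaip1* lost its call without evGFP replicate 2 or GFP-KLF2 replicate 1 or 2. *Cdkn1a* kept it only without evGFP replicate 2, and *Ccng1* only without evGFP replicate 3. *Zmat3* and *Phlda3* had -0.71 and -0.53 (adjusted p = 0.0545 and 0.166, 0.00304 and 0.0318 with the replicate block). *Fas*, a death receptor, had 0.38 (adjusted p = 0.56, 0.0264 with the replicate block). With the block 3 genes of the list were called higher and 3 lower. Without evGFP replicate 3 the number called lower was 4, and it was 0 without any other single array.

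**Figure D4:**
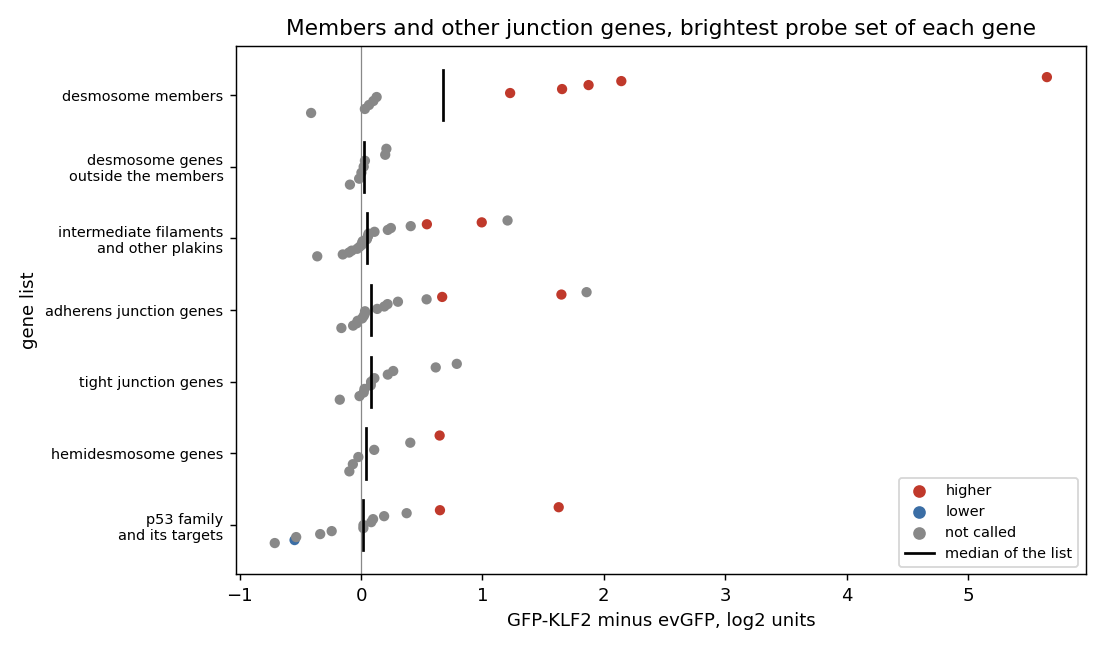
Difference between GFP-KLF2 and evGFP cells (x axis, log2 units) for the 10 desmosome genes and 6 lists of related genes, each gene by its brightest probe set. Red points were called higher, blue lower and grey not called, and the bars are medians. The desmosome genes split into 5 red points from 1.23 to 5.65 and 5 grey ones from -0.41 to 0.13.

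Markers of cells other than T cells were measured beside these genes, since epithelial cells are the usual source of desmosomes and since in bulk RNA fewer cells of a type and less RNA per cell cannot be told apart. Of 11 epithelial markers 0 were called by limma, with 2 higher and 0 lower at an unadjusted p under 0.05. Among them *Krt14*, *Krt18*, *Cldn4* and *Cldn7* had both group means under the array median. The largest differences were 1.86 for *Cdh1*, which was called with the replicate block (adjusted p = 0.00626), 0.51 for *Sfn* (adjusted p = 0.205) and 0.41 for *Krt19* (adjusted p = 0.0963), whose groups did not overlap. The groups did not overlap for *Cldn4* (0.22) and *Trp63* (0.10) either, both under the array median. Of all genes 14.3% had every GFP-KLF2 array above every evGFP array. *Krt5*, *Krt8* and *Epcam* differed by -0.03, 0.05 and 0.15. The summed linear intensity of the 11 markers was 578 to 694 in evGFP and 752 to 1040 in GFP-KLF2 arrays, which did not overlap. Without *Cdh1*, left out after its values were seen, the sum was 491 to 550 and 561 to 578. The part of these markers in the *Dsp*, *Jup*, *Evpl*, *Pkp3* and *Perp* values was not tested. Markers of myeloid and dendritic cells (401 to 476 against 470 to 500), B cells (247 to 263 against 232 to 360), megakaryocytes and erythroid cells (383 to 410 against 382 to 407) and stroma and endothelium (313 to 390 against 332 to 399) overlapped between the groups in their sums. In these 4 lists 0 of 9, 4, 6 and 7 genes were called, and 1, 2, 0 and 0 were higher at an unadjusted p under 0.05. The sum of the CD8 T cell markers was 49600 to 52600 in evGFP and 54100 to 56600 in GFP-KLF2 arrays, and 1 of these 8 genes, *Cd8b1*, was called (0.45 higher, adjusted p = 0.0107).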

How the data were processed

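RNA of 6 sorted cell populations, 3 per group, was measured on Affymetrix mouse expression arrays. Per the methods and the labels, the authors normalised the arrays by RMA (background correction, quantile normalization and a summary per probe set) and named limma for their test, with no versions stated. The deposited values are intensities on a linear scale, 5.74 to 33637.8, and their log2 was taken here. Of 45101 rows 64 controls were removed. Gene names follow the array annotation, updated to RefSeq symbols of GRCm38.p6 by Entrez number, with 34945 probe sets of 1 gene, 932 of several and 9160 of none. No probe set of several genes names a desmosome gene of the 10.

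The fit was limma 3.58.1 in R 4.3.3 with 1 constant per group, 2-sided, with Benjamini-Hochberg adjustment over all 45037 probe sets. Since the methods print the threshold of 0.046 as a percent, 0.00046 was an alternative. Intervals are 95% confidence intervals of this fit. The smallest p of an exact permutation test of 3 arrays against 3 is 0.1, and the calls draw on a variance that limma moderates across probe sets. Precision is set by the small number of arrays. The genes and lists were chosen with earlier results of these data known. The genes to be named were all 10 desmosome genes, the called genes of each list (at most 4) with up to 2 uncalled ones of the largest difference, and the 5 genes of pattern nearest to *Dsp*. *Vim*, *Itgb4*, *Cd8b1*, *Cd3e*, the markers and the genes whose call changes with the replicate block were named besides.

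Replicate numbers were checked for pairing. The correlation of array deviations from their group mean was 0.325, 0.442 and 0.466 for arrays of the same number and -0.38 to 0.0578 for others, over all probe sets, so that a replicate block is given where it changes a call. Deviations within a group cancel at each probe set, so positive values for the same number draw the others down. The others are thus no independent baseline. The alternatives were this block, each array left out in turn, quantile normalization, median centring, removal of probe sets under 5, other thresholds, an intensity trend with a robust prior, and averaging a gene's probe sets. The fit was tested on simulated data.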

Additional observations from a re-analysis of the deposited data

How the results depend on the processing

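The 5 desmosome genes called higher and the 0 called lower stayed at these counts with the replicate block (5 and 0), quantile normalization, median centring, dim probe sets removed, an adjusted p under 0.05, a 2-fold threshold, an intensity trend with a robust prior, and the mean of all probe sets. Over all genes quantile normalization gave 1177 higher and 1435 lower, and median centring 1085 and 1614. Removal of dim probe sets gave 1233 and 1799, the threshold of 0.05 gave 1165 and 1599, and the intensity trend 1210 and 1801. Over single arrays left out 4 to 5 were called higher, 4 of them without evGFP replicate 2. Under the alternatives 318 values were compared, each of a single desmosome probe set or, in the averaging setting, of a gene's mean. Of these 313 stayed on their side of the threshold and none changed direction with a call. The exceptions were *Perp* without evGFP replicate 2 and, at an adjusted p under 0.00046, *Perp*, both *Pkp3* probe sets and *Dsp* 1435493_at.

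At 0.00046, 3 of the desmosome genes were called, 31 of all genes were called higher and 3 lower, and the lists of filaments and plakins, adherens junctions, hemidesmosomes and the p53 family and its targets each gave 0. With a 2-fold threshold 405 of all genes were higher and 130 lower, where 1131 and 1519 were called without it. The filament and hemidesmosome lists then gave 0 calls, the adherens list 1, and the p53 list 1 higher and 0 lower. With the replicate block the counts were 4 higher for adherens, 1 for tight junctions, 2 for hemidesmosomes, 3 higher and 1 lower for filaments, 3 higher and 3 lower for the p53 list, and 1561 higher and 2203 lower over all genes. The intensity trend left 1 gene of the p53 list higher and called *Afdn* higher (limma adjusted p = 0.0397). The mean of all probe sets called 1 filament-list gene, *Dst*, lower. It also called *Krt6b* and *Afdn* higher (adjusted p = 0.0442 and 0.0392), while *Ctnna1* lost its call (0.0864). *Afdn* was called as well with quantile normalization (0.0289), without dim probe sets (0.0422) and without evGFP replicate 3 (0.016). *Krt6b* was called without dim probe sets (0.0426) and at the threshold of 0.05. With single arrays left out the ranges were 1 to 3 higher for filaments and adherens, 0 to 1 for tight junctions and hemidesmosomes, 0 to 1 higher and 0 to 4 lower for the p53 list, and 556 to 1041 higher and 591 to 1132 lower over all genes. The cause of these changes was not tested, and fits without an array have fewer samples. Low signal limits what the arrays can resolve for *Dsg2*, *Dsc2*, *Pkp1*, *Pkp2* and the *Dsp* controls.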

Other observations

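The tight junction scaffold gene *Tjp1* varied more between arrays of a group than any desmosome gene. Its brightest probe set read 4.36, 6.61 and 8.37 in evGFP replicates 1, 2 and 3 and 6.05, 7.16 and 8.49 in GFP-KLF2 replicates 1, 2 and 3. In both groups replicate 1 was lowest and replicate 3 highest, and the difference between the groups was 0.79 (95% confidence interval -1.53 to 3.11, limma adjusted p = 0.709). *Cdh1* was also lowest in replicate 1 of both groups. Among the desmosome genes called higher, *Perp* had its highest control value in evGFP replicate 1, and *Dsp* its lowest GFP-KLF2 value in replicate 3. These values were picked out after they had been seen, and what the arrays of a number share was not tested.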
